A study of Mus musculus with 6 samples.

Results

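Platelet RNA was examined for 10 genes that move calcium into the cytosol or back out of it, namely the store sensor Stim1, the entry channels Orai1, Orai2 and Orai3, the IP3 receptors Itpr1, Itpr2 and Itpr3, the store pumps Atp2a2 and Atp2a3 and the plasma membrane pump Atp2b1. They were chosen by gene symbol, and all 10 were found among the 14975 genes with a deposited FPKM value (read number per kilobase of gene, set against the size of the library). The study compared 3 libraries of pre-AML platelets, labelled AML, with 3 libraries of control platelets, labelled WT, named here by group and number. Values listed for a group follow the order of its library numbers, from 1 to 3. All mice were C57BL/6 in the labels, and the study's methods describe young adult females.

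The study's methods describe pre-AML mice as sub-lethally irradiated secondary recipients of GFP+ bone marrow cells that carried the MLL-AF9 oncogene from a retrovirus, sampled a week after transplantation. Controls were irradiated mice that received normal bone marrow cells, taken at the same time after transplantation, so irradiation was shared by both groups. The labels give no week, irradiation or transplant. The oncogene was carried by the transplanted cells and not by the germ line of the mice. Platelets of the blood were purified by depletion of cells with CD45, a leukocyte marker, or Ter119, an erythroid marker, before SMART-Seq2 amplification of poly(A) RNA. According to the labels 3 to 4 mice were pooled in each library and groups had 2 replicates, while the paper speaks of independent mice, so the p-values below measure the spread between libraries, which may be technical in part.

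Platelets hold calcium in the dense tubular system, a form of endoplasmic reticulum. Agonists make phospholipase C release IP3, which opens IP3 receptors in that membrane, and STIM1 senses the emptied store and opens ORAI channels of the plasma membrane, a process called store-operated calcium entry. SERCA pumps, encoded by the Atp2a genes, refill the store, and PMCA pumps, encoded by the Atp2b genes, push calcium out of the cell. The rise of cytosolic calcium drives integrin activation, granule secretion and the exposure of phosphatidylserine.

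Read numbers recovered from the FPKM values came to 11936014 to 17778965 reads per library, with the most in pre-AML 3. The library size behind the FPKM values was 1.31 times these reads in pre-AML 3 and 0.983 to 1.01 times elsewhere, so the same share of reads gives a lower FPKM in that library. Pre-AML 3 also stood apart on the first principal component, which held 70.2% of the variance, at 41.9 against -12.7 to -2.1 for the other libraries. The defining platelet markers were present in every library, with a sum of 90550 to 114500 FPKM over 12 genes led by Pf4 and Ppbp in controls and 61970 to 92970 in pre-AML. The 11 B cell markers in the table, led by Cd74 and H2-Ab1, summed to 3.33 to 4.45 FPKM in controls and to 2.77, 27.8 and 305.9 FPKM in the pre-AML libraries. The 12 T and NK cell markers, led by Nkg7 and Gzma, summed to 19.2 to 28.9 FPKM in controls and 34.6 to 45.6 in pre-AML. Nkg7 made up most of the control sums and overlapped between the groups, at 18.9 to 28.2 FPKM in controls and 22.6 to 27.9 in pre-AML. Gzma was at 0 to 0.353 and 4.61 to 8.905 FPKM. For the 15 monocyte and macrophage markers the sums were 4665 to 5317 and 4873 to 5554, most of it from Lyz2 and Fcer1g. Fcer1g was lower in pre-AML 3, at 1867 FPKM against 2280 to 2701 in controls, while the other markers of this list were higher there. Tyrobp was at 0.126 to 0.533 FPKM in controls and 4.85, 4.37 and 153.3 in pre-AML. C1qb was at 0 to 0.457 FPKM in controls and 0, 0.122 and 127.7 in pre-AML. The sums of 11 neutrophil markers, led by S100a8 and Mmp8, were 3.16 to 3.66 and 1.55 to 4.998 FPKM, those of 8 erythroid markers, led by Hba-a1 and Hbb-bt, 2351 to 2653 and 2377 to 2991, and those of 9 leukemic progenitor markers, led by Sox4 and Cd34, 2.75 to 4.35 and 2.61 to 3.66.

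The RNA of both groups held a narrow set of these genes at a mean of 1 FPKM or more, and no protein values were at hand. In control platelets the order of levels was Atp2a3, Stim1, Orai1, Itpr2, Orai3 and Orai2, and then, after a gap of 26.4-fold, Atp2a2, Atp2b1, Itpr1 and Itpr3. The first 6 genes were each at 3.4 FPKM or more in every library, and the mean of each of the other 4 over the 6 libraries was under 1 FPKM. The lowest control library of one gene lay above the highest of the next for all neighbours in this order apart from Orai1 and Itpr2, Atp2a2 and Atp2b1, and Atp2b1 and Itpr1, whose ranges overlapped. Even so, Orai1 was above Itpr2 in 3 of 3 controls, though in 2 of 3 pre-AML libraries. The plot of the members by library shows both the gap and the overlap of the groups above it.

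**Figure D1:**
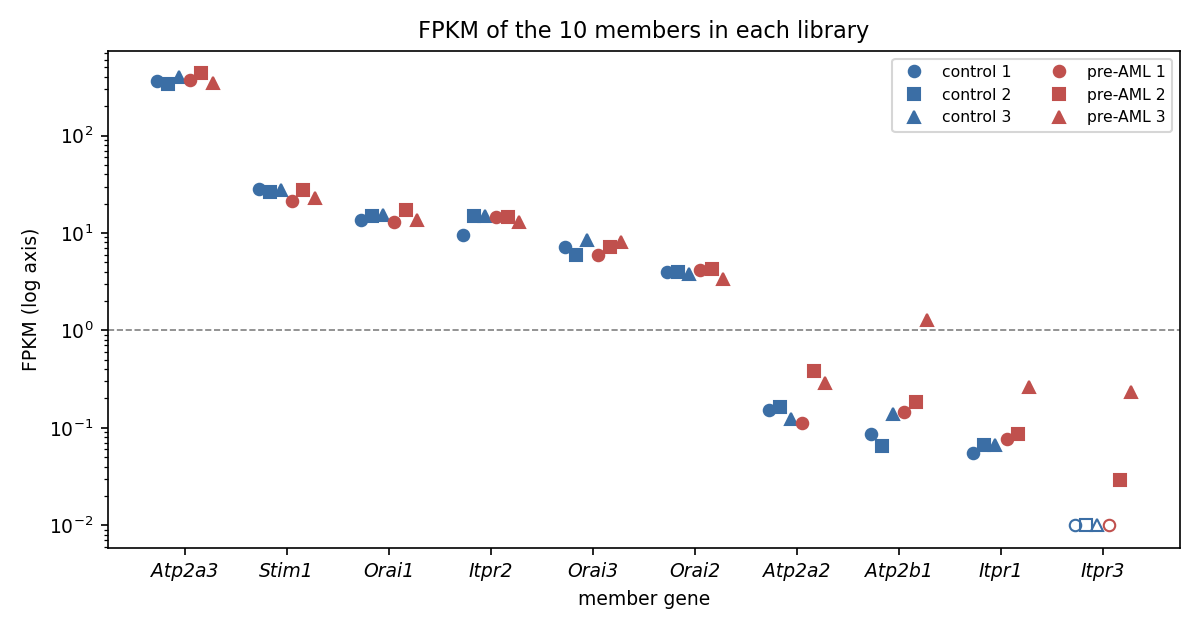
FPKM on a log axis of each of the 10 genes, ordered by control mean; blue markers are the 3 control and red markers the 3 pre-AML libraries, the dashed line is the filter of 1 FPKM, and open markers at 0.01 are values of 0. Atp2a3 stands between 335 and 435 FPKM in all libraries, and Atp2b1, Itpr1 and Itpr3 are highest in pre-AML 3.

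Of the 10 genes, 6 had a mean of at least 1 FPKM and were tested with limma-trend on log2(FPKM + 1), and 0 of them passed an adjusted p of 0.05, against 0.0227% of all 4412 genes tested. At an unadjusted p under 0.05 the count was also 0 of 6, against 9.09% of all genes. On the recovered reads limma-voom called 0 of the 6 as well, and 0 of all 4397 genes it tested. The adjusted p of the 6 genes lay between 0.614 and 0.978 (limma-trend with Benjamini-Hochberg adjustment). Their median log2 fold change was 0.003, beside -0.055 for all genes tested. With no filter on low values all 10 genes entered the test and 0 were called, at an adjusted or an unadjusted p, where the shares of all 14975 genes were 0% and 5.81%. For the 6 genes tested, the fold changes with their intervals show how large a difference the 3 libraries per group leave possible. Those of the 4 genes below the filter are for FPKM + 1 and do not bound the fold of the FPKM. The interval of Itpr1, for example, ends at a fold of 1.20, while its mean FPKM differed 2.25-fold.

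**Figure D2:**
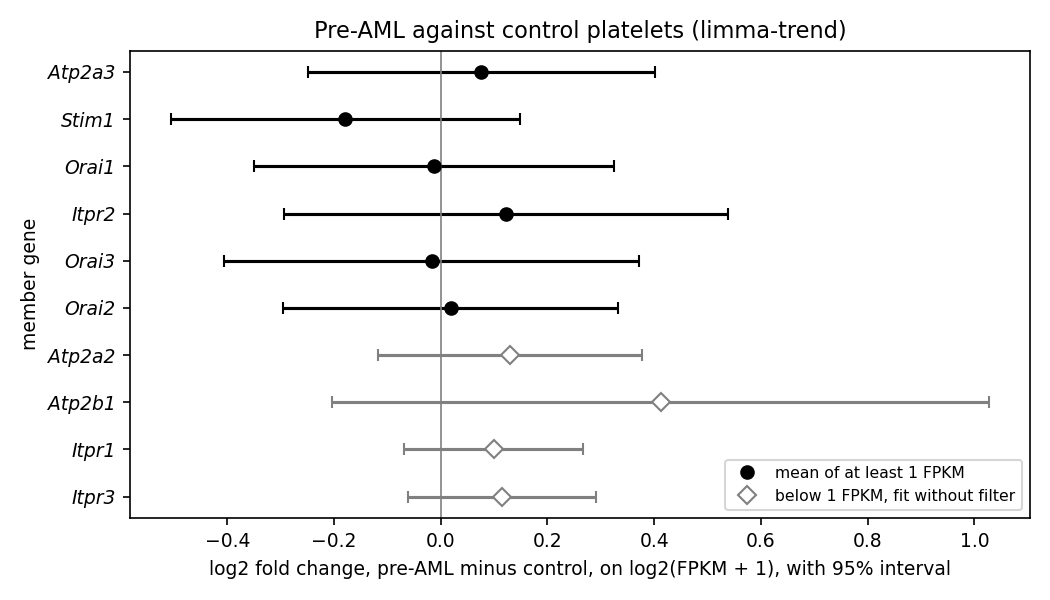
Log2 fold change of each gene, pre-AML minus control, on log2(FPKM + 1), with its 95% interval from limma-trend; filled circles are the 6 genes tested and open diamonds the 4 genes below the filter, taken from the fit without a filter. All 10 intervals include 0, and that of Atp2b1, -0.20 to 1.03, is the widest. Intervals of the open diamonds are for FPKM + 1 and do not bound the fold of the FPKM.

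The 250 bases before the RefSeq start site, on GRCm38.p6, are shown for 4 members chosen for their levels. Atp2a3 and Stim1 had the highest levels, while Itpr2 and Itpr3 encode IP3 receptors of the same family and differ from each other the most in level. Each is printed 5′ to 3′ on the strand of its gene, and capitals mark 3 motifs on either strand, so that the reverse complement is in capitals too. GATAA was searched as the motif of GATA factors. GGAAG was searched as that of ETS factors, and GGGCGG is the GC box. Atp2a3 lies at chr11:72960919-72961168 on the plus strand, Stim1 at chr7:102267569-102267818 on the plus strand, Itpr2 at chr6:146502224-146502473 on the minus strand and Itpr3 at chr17:27057054-27057303 on the plus strand.
Atp2a3: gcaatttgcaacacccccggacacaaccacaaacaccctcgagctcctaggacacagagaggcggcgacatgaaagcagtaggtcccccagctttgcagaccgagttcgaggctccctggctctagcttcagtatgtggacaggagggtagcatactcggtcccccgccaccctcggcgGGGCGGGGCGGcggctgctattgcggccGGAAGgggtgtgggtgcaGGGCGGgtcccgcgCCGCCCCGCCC
Stim1: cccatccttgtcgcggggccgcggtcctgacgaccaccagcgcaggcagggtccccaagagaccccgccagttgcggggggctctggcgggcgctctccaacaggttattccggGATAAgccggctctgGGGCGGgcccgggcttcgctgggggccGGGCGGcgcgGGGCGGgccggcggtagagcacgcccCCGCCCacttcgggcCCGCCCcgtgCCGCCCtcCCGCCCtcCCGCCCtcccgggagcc
Itpr2: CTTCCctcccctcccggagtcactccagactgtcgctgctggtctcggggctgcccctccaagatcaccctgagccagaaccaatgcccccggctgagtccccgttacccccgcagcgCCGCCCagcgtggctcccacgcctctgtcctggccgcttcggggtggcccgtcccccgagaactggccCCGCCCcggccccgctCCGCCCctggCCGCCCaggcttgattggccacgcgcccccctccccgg
Itpr3: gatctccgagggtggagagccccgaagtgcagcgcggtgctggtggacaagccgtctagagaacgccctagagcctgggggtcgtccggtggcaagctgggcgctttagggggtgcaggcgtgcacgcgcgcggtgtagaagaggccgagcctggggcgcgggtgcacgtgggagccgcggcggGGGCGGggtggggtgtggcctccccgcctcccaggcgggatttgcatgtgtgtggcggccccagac
The GC box was found 5 times in Atp2a3, where neighbouring copies share a base, 8 times in Stim1, 4 times in Itpr2 and 1 time in Itpr3, and 32.7% of the 32851 promoter windows of this length hold it at least 1 time. GATAA, held by 22.6% of all windows, was found in Stim1 only among these 4, and GGAAG, held by 64.1%, in Atp2a3 and Itpr2. All 4 windows were rich in G and C, with 66.8%, 78.4%, 74.4% and 72% in the order printed, where the median over all windows was 52.4%. A match to these letters is a description of the sequence and not a measured site. RefSeq windows were matched for 8 of the 10 genes and not for Itpr1 and Atp2a2. Among the windows not printed, the GC box was found 3 times in Orai1 and 1 time each in Orai2 and Orai3, all above 1 FPKM. In the windows of Atp2b1, which had a mean below 1 FPKM, it was found 4 and 3 times. The number of GC boxes thus did not follow the levels of these genes.

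Stim1, whose product senses the calcium content of the store, maps to chromosome 7 of GRCm38, 102267806 to 102437319, plus strand, and all positions below are on that build. It had 28.3, 26.2 and 27.4 FPKM in controls and 21.5, 28.0 and 22.9 FPKM in pre-AML libraries. Pre-AML 1 and pre-AML 3 were below every control, pre-AML 2 was among them, and the groups overlapped. The means were 27.3 ± 1.07 against 24.1 ± 3.4 FPKM (SD, n = 3 each), and the log2 fold change was -0.18 (SE 0.14, 95% interval -0.50 to 0.15, limma-trend adjusted p = 0.614). The exact two-sided permutation test gave p = 0.3, where 3 against 3 libraries allow no p below 0.1. The log2 fold change of Stim1 was -0.29 when pre-AML 2 was left out, -0.10 when pre-AML 1 was left out, -0.051 with recovered reads and -0.014 with TPM scaling. In bulk RNA of this kind, fewer cells of a type and less RNA per cell cannot be told apart. Stim2, the second sensor of the family, was at 0.917 ± 0.197 FPKM in controls against 0.711 ± 0.164 FPKM in pre-AML libraries (SD, n = 3 each), so Stim1 held 96.8% ± 0.559 against 97.1% ± 0.438 (SD, n = 3 each) of the FPKM of both genes.

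Orai1, the pore-forming subunit of the main store-operated channel of platelets, is on chromosome 5 from 123015074 to 123030456, on the plus strand. Its levels were 13.6, 15.0 and 15.2 FPKM in the 3 controls and 12.9, 17.1 and 13.6 FPKM in pre-AML libraries. The pre-AML libraries reached from below to above all controls, and the means were close, at 14.6 ± 0.849 against 14.55 ± 2.26 FPKM (SD, n = 3 each). Its log2 fold change of -0.013 (SE 0.15, 95% interval -0.35 to 0.32, limma-trend adjusted p = 0.978) leaves room for a fold of 0.785 to 1.25. Orai3, a paralog that can join ORAI1 in channels, is on chromosome 7 from 127769815 to 127775150 and had 7.16, 5.88 and 8.56 FPKM in controls and 5.93, 7.24 and 8.05 FPKM in pre-AML libraries. The groups of Orai3 covered nearly the same range, with a log2 fold change of -0.017 (SE 0.17, 95% interval -0.41 to 0.37, limma-trend adjusted p = 0.973). Scaling to the recovered reads turned Orai1 and Orai3 to log2 fold changes of 0.11 and 0.10, and without pre-AML 1 Orai1 was at 0.064 and without control 3 Orai3 was at 0.10.

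Orai2, the least abundant of the channel genes, is on chromosome 5 from 136147459 to 136170713, on the minus strand. Controls had 3.94, 3.96 and 3.77 FPKM and pre-AML libraries had 4.21, 4.32 and 3.40 FPKM. Pre-AML 1 and pre-AML 2 were above all controls and pre-AML 3 below them, so the groups overlapped. The log2 fold change was 0.019 (SE 0.14, 95% interval -0.29 to 0.33, limma-trend adjusted p = 0.966), and it was -0.032 without pre-AML 2. In the exact two-sided permutation test the p of Orai1, Orai2 and Orai3 was 1, 0.9 and 1, with 0.1 as the smallest p possible.

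The makeup of the Orai family differed between the groups by less than the spread within them. Orai1 held 56.9% ± 3.06 of the summed FPKM of the family in controls and 56.7% ± 2.73 in pre-AML libraries (SD, n = 3 each). For Orai3 the shares were 27.9% ± 3.86 against 27.7% ± 3.81 (SD, n = 3 each), and for Orai2 15.2% ± 1.27 against 15.6% ± 2.4 (SD, n = 3 each). In contrast, a single gene supplied nearly all of the FPKM of the IP3 receptors and of the SERCA pumps, as the plot of the family shares shows.

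**Figure D3:**
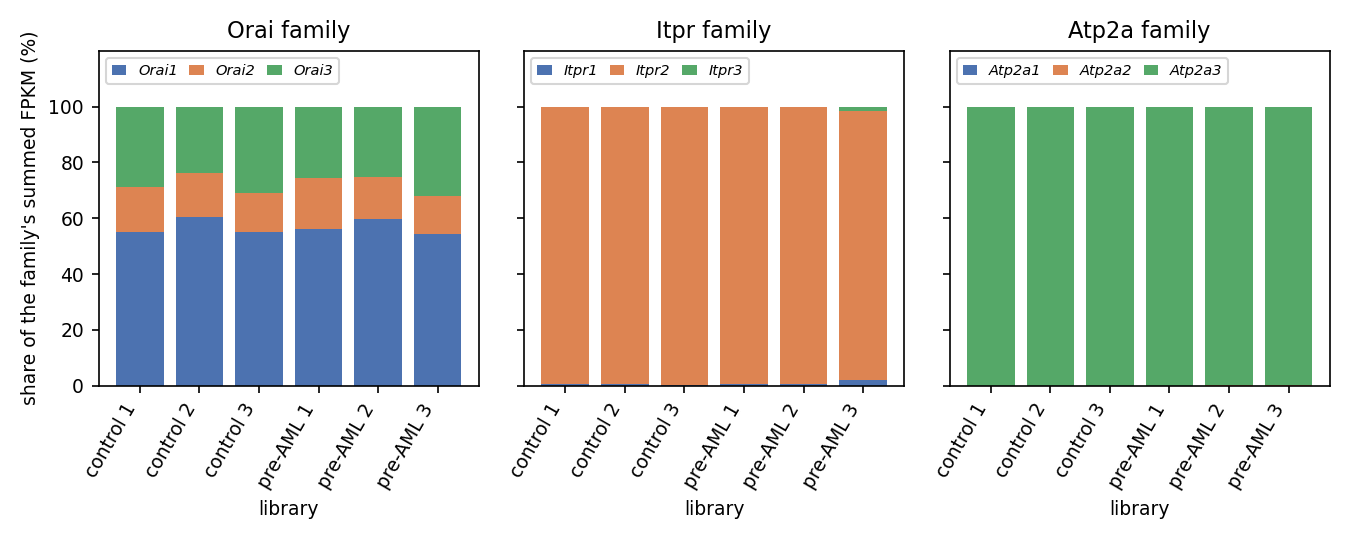
Share of the summed FPKM (percent) that each gene of the Orai, Itpr and Atp2a families held in each of the 6 libraries, as stacked bars. The Orai family was divided among 3 genes, Itpr2 held 96.35% or more of the Itpr family and Atp2a3 99.89% or more of the Atp2a family in every library.

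Itpr2, which held nearly all of the FPKM of the IP3 receptors, is on chromosome 6 from 146108299 to 146502223, on the minus strand. It had 9.62, 14.8 and 14.9 FPKM in controls and 14.6, 14.6 and 13.1 FPKM in pre-AML libraries. Control 1 was the lowest library, and the other 5 lay between 13.1 and 14.9 FPKM. The means were 13.1 ± 3.03 against 14.1 ± 0.891 FPKM (SD, n = 3 each), with a log2 fold change of 0.12 (SE 0.18, 95% interval -0.29 to 0.54, limma-trend adjusted p = 0.792). The exact permutation p was 1 (lowest possible 0.1), and without control 1 the log2 fold change was -0.070.

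Itpr1, the IP3 receptor known for its abundance in neurons, is on chromosome 6 from 108213096 to 108551109, on the plus strand. It was at 0.0553, 0.0666 and 0.0667 FPKM in controls and 0.0759, 0.0861 and 0.263 FPKM in pre-AML libraries. These values stand for about 12 to 17 reads in controls and 18, 24 and 112 in pre-AML libraries. All pre-AML libraries were above all controls (exact permutation p = 0.1, the lowest that 3 against 3 give), which was so, with pre-AML higher, for 8.11% of the 10563 genes with a mean under 1 FPKM. Pre-AML 3 was 4.18-fold over the control mean and the mean of the other pre-AML libraries 1.29-fold. Of its exon bases, 0.99% are shared with the opposite-strand gene Gm44101 and 0.59% with Gm44040, and the library kit does not mark strand.

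Itpr3, the third IP3 receptor, is on chromosome 17 from 27057304 to 27122223, on the plus strand. It had 0 reads in the 3 controls and in pre-AML 1, 4 reads (0.0294 FPKM) in pre-AML 2 and 49 reads (0.233 FPKM) in pre-AML 3. A count of 0 allows up to 3 reads, which are 0.0283 FPKM or less in each control, and pre-AML 3 was at least 8.22-fold higher than that limit, which covers counting error only. The groups overlapped at 0, and the exact permutation p was 0.4 (lowest possible 0.1). Of its exon bases, 2.58% are shared with the antisense gene Itpr3os. Of the FPKM of the 3 IP3 receptors, Itpr2 held 99.4% to 99.6% in controls and 96.4% to 99.5% in pre-AML libraries, with the lowest share in pre-AML 3.

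Atp2a3, which encodes the SERCA3 pump of the platelet store, was the most abundant of the 10 genes and is on chromosome 11 from 72961169 to 72993044, on the plus strand. It had 363, 335 and 401 FPKM in controls and 376, 435 and 349 FPKM in pre-AML libraries. Each of these values was above those of 99.06% or more of the 14975 genes of its library. The groups overlapped, with the highest library in pre-AML and the lowest in control, and the means were 366.5 ± 33.3 against 387 ± 44.05 FPKM (SD, n = 3 each). The log2 fold change was 0.076 (SE 0.14, 95% interval -0.25 to 0.40, limma-trend adjusted p = 0.838), and the exact permutation p was 0.6 (lowest possible 0.1). The fold change turned to -0.012 without pre-AML 2 and to -0.085 after trends with length and GC content were taken out of each library.

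Atp2a2 encodes SERCA2, the store pump found in most cells, and is on chromosome 5 from 122453513 to 122502225, minus strand. Its level was 0.154, 0.164 and 0.124 FPKM in controls, from 9 to 14 reads, and 0.111, 0.382 and 0.289 FPKM in pre-AML libraries, from 9, 35 and 41 reads. Pre-AML 2 and pre-AML 3 were above all controls and pre-AML 1 below them (exact permutation p = 0.4, lowest possible 0.1). Atp2a3 thus had 2046 to 3226 times the FPKM of Atp2a2 in controls and 1141 to 3381 times in pre-AML libraries. Atp2a1, the SERCA pump of skeletal muscle, had 0.0842 ± 0.0372 FPKM in controls against 0.0646 ± 0.056 FPKM in pre-AML libraries (SD, n = 3 each).

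Atp2b1 encodes PMCA1, a pump that most cells use to export calcium, and is on chromosome 10 from 98914406 to 99026143, on the plus strand. It had 0.0873, 0.0656 and 0.138 FPKM in controls and 0.146, 0.183 and 1.29 FPKM in pre-AML libraries. In reads these were 14 to 25 in controls and 30, 42 and 457 in pre-AML libraries. Every pre-AML library was above every control (exact permutation p = 0.1, the lowest that 3 against 3 give), as for Itpr1 and for the 8.11% of genes under 1 FPKM named there. Pre-AML 3 was 13.3-fold over the control mean and the mean of pre-AML 1 and pre-AML 2 was 1.70-fold. In the fit without a filter its log2 fold change was 0.41 (SE 0.26, 95% interval -0.20 to 1.03, limma-trend adjusted p = 0.705), and 0.087 when pre-AML 3 was left out too. Of the other PMCA genes, Atp2b4 was at 0.0402 ± 0.0254 FPKM in controls against 0.0338 ± 0.0142 FPKM in pre-AML libraries (SD, n = 3 each), and Atp2b2 was listed at 0 in all pre-AML libraries and in control 3.

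Of the 4 genes below the filter, Atp2b1, Itpr1 and Itpr3 were highest in pre-AML 3, as were 43.2% of the 10563 genes with a mean under 1 FPKM. In the fit without a filter, Itpr1, Itpr3 and Atp2a2 had log2 fold changes of 0.099, 0.12 and 0.13, with an adjusted p of 0.705 each (limma-trend with Benjamini-Hochberg adjustment). When pre-AML 3 was left out, these were 0.024, 0.021 and 0.11. All 11 B cell markers in the table were above every control in pre-AML 3, as were 8 in pre-AML 2 and 0 in pre-AML 1, and the number at 0 was 3 in each control and 0 in pre-AML 3. For monocyte and macrophage markers, 14 of 15 were above every control in pre-AML 3, 9 in pre-AML 2 and 6 in pre-AML 1, and for T and NK cell markers 11, 7 and 9 of 12. In the same order, the counts were 2, 5 and 5 of 11 neutrophil markers and 3, 3 and 1 of 8 erythroid markers. They were 2, 1 and 2 of 9 leukemic progenitor markers and 0, 4 and 1 of 12 platelet markers. The share of all genes above every control in each library was not worked out. Cd79a, a B cell receptor chain, was at 23.6 FPKM in pre-AML 3, 1.501 in pre-AML 2 and 0.0577 to 0.292 in controls. The part of these markers, and of the depth of pre-AML 3, in the levels of Atp2b1, Itpr1, Itpr3 and Atp2a2 was not tested.

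**Figure D4:**
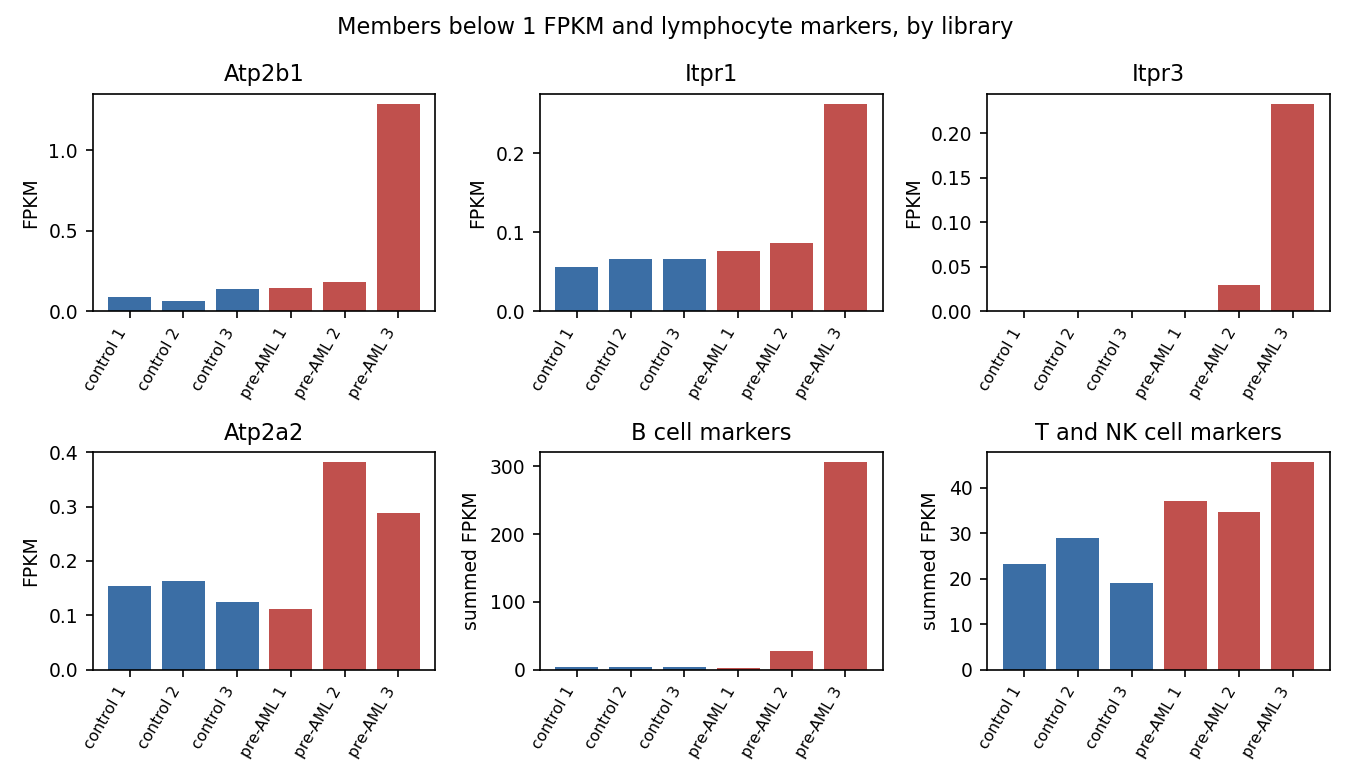
FPKM of the 4 genes below the filter in each library, with the summed FPKM of 11 B cell markers and of 12 T and NK cell markers; blue bars are control and red bars pre-AML libraries, and each panel has its own axis from 0. Atp2b1, Itpr1, Itpr3 and both marker sums are highest in pre-AML 3, and Atp2a2 is highest in pre-AML 2.

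Within a library, ratios between these genes do not depend on its overall scaling, and 10 such ratios were compared between the groups. The ratio of Stim1 to Orai1, sensor to channel, was 2.08, 1.74 and 1.80 in controls and 1.67, 1.63 and 1.68 in pre-AML libraries. That of Atp2a3 to Stim1, pump to sensor, was 12.8, 12.8 and 14.7 in controls and 17.5, 15.6 and 15.3 in pre-AML libraries. Both left no overlap between the groups, with p = 0.1 in the exact two-sided permutation test, the smallest p possible, and 0.333 adjusted over the 10 ratios. Among single genes, 18.9% of the 4412 tested had FPKM values that did not overlap between the groups, and no such share was worked out for ratios. As a difference of log2(FPKM + 1), Stim1 minus Orai1 changed by -0.17 between the groups, but by 0.066 after trends with length and GC content were taken out. Atp2a3 minus Stim1 changed by 0.26, and by 0.11 without these trends. Without the trends both overlapped between the groups, with exact permutation p of 0.5 and 0.7. The ratio of Atp2a3 to Atp2b1 also left no overlap (p = 0.1, exact permutation test, 0.333 adjusted over the 10 ratios), at 2911 to 5107 in controls, 2570 and 2373 in pre-AML 1 and pre-AML 2 and 271 in pre-AML 3. For the other 7 ratios the p of the exact permutation test was between 0.2 and 1.

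Around these members, 94 other genes of calcium handling were in the table, and 40 had a mean of at least 1 FPKM. Of these, 0 passed the adjusted threshold in limma-trend and 0 in limma-voom on the recovered reads. Of all genes, 1 of 4412 and 0 of 4397 did. Of the 40 genes, 8 lay above a log2 fold change of 0 and 32 under it, and the median was -0.16 beside -0.055 for all genes, of which 58.5% lay under 0. This split moved with the scaling, and so did that of all genes. The median of the 40 genes was -0.027 against 0.090 for all genes with TPM scaling, and -0.052 against 0.051 with recovered reads. It was -0.16 against -0.040 with length and GC trends removed. With TPM scaling 19 lay above 0 and 21 under it, where 62.3% of all genes were above 0, and with the recovered reads 18 and 22, where 57.6% were. At an unadjusted p under 0.05, 4 were lower and 0 higher, where 288 of all 4412 genes were lower and 113 higher. With both directions together this is 10% of 40 against 9.09% of all genes. In 9 of 40 the groups did not overlap, against 18.9% of all genes. The 4 lower genes were Tmco1, Inpp5a, Atp2c1 and Ppp3r1, each with an adjusted p of 0.522 (limma-trend with Benjamini-Hochberg adjustment). The counts were 4 lower and 2 higher with TPM scaling, and 5 lower and 2 higher with recovered reads. Leaving out pre-AML 1 gave 6 lower and 0 higher, leaving out control 3 gave 2 lower and 0 higher, and leaving out control 1 gave 1 lower and 1 higher. All 4 were lowest in pre-AML 3, where the sum of the platelet markers, led by Pf4 and Ppbp, was lowest too, at 61970 FPKM. Itga2b, Gp9, Gp5, Tubb1 and Gp1bb were within the range of controls there, and the other platelet markers were below it. The part of these markers, and of the larger library size behind the FPKM values of pre-AML 3, in the levels of the 4 genes was not tested.

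Among store sensors and regulators, 14 genes were in the table and 4 were tested, with 1 log2 fold change above 0. Saraf, whose product slows store-operated entry, had 55.01 ± 4.23 FPKM in controls against 47.6 ± 7.74 FPKM in pre-AML libraries (SD, n = 3 each), and Selenok, a selenoprotein of the endoplasmic reticulum, 43.7 ± 2.47 against 41.3 ± 4.73 FPKM (SD, n = 3 each). Both overlapped between groups. Tmco1, which encodes a channel that lets calcium out of overfilled stores, had 18.3, 12.8 and 13.0 FPKM in controls and 10.8, 8.93 and 6.95 FPKM in pre-AML libraries, with no overlap, and a log2 fold change of -0.67 (SE 0.20, limma-trend adjusted p = 0.522).

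For IP3 production and removal, 4 of 12 genes were tested and 1 had a log2 fold change above 0. Inpp5a, a phosphatase that ends the IP3 signal, had 13.5 ± 0.683 FPKM in controls against 9.35 ± 3.03 FPKM in pre-AML libraries (SD, n = 3 each), and its groups did not overlap, although pre-AML 2 at 12.6 was next to control 2 at 12.7. Its log2 fold change was -0.52 with all libraries and -0.32 when pre-AML 3 was left out. Plcg2, the phospholipase C downstream of the collagen receptor, had 5.63 ± 1.77 against 5.02 ± 2.25 FPKM (SD, n = 3 each). Of the partners of IP3 receptors, 5 of 14 were tested and 1 was above 0. Irag1, the substrate by which cGMP-dependent kinase restrains the receptor, had 39.95 ± 4.93 against 37.0 ± 6.57 FPKM (SD, n = 3 each). Lrmp, a related membrane protein, was at 3.97 ± 0.646 against 4.11 ± 0.442 FPKM (SD, n = 3 each), and Erp44, an oxidoreductase of the store lumen, had the smallest p of this list with a log2 fold change of -0.32 (limma-trend adjusted p = 0.540), which was -0.16 when pre-AML 3 was left out and 0.016 when the trends with length and GC content were taken out.

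Among other pumps and exchangers, 4 of 14 genes were tested and 0 had a log2 fold change above 0. Nptn and Bsg encode neuroplastin and basigin, membrane glycoproteins that act as subunits of PMCA pumps and have other partners too. Nptn had 486, 506 and 494 FPKM in controls and 457, 439 and 259 FPKM in pre-AML libraries, with no overlap and the lowest value in pre-AML 3 (log2 fold change -0.41, limma-trend adjusted p = 0.526). Leaving out pre-AML 3 moved Nptn to -0.14, and taking out the trends with length and GC content to -0.21. Bsg had 187.5 ± 14.7 against 174 ± 11.7 FPKM (SD, n = 3 each). Atp2c1, the calcium and manganese pump of the Golgi, had 32.5 ± 3.8 against 23.6 ± 3.91 FPKM (SD, n = 3 each), with no overlap and a log2 fold change of -0.46 (limma-trend adjusted p = 0.522), or -0.24 with these trends taken out.

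For other calcium channels, 4 of 14 genes were tested and 1 was above 0. P2rx1, the ATP-gated channel of platelets, had 534 ± 76.5 against 499 ± 61.2 FPKM (SD, n = 3 each), a level above that of Atp2a3. Trpc6, a channel opened by diacylglycerol, had 13.6 ± 1.117 against 11.1 ± 3 FPKM (SD, n = 3 each), and Trpc1, a related channel subunit, had a log2 fold change of -0.31 (limma-trend adjusted p = 0.552), or -0.20 when control 3 was left out and -0.16 with the trends taken out. Of the store buffers and calcium effectors, 19 of 26 were tested and 4 were above 0. Calm2, a calmodulin gene, had 970 ± 38.8 against 749.5 ± 179.5 FPKM (SD, n = 3 each) with no overlap, while Calm3, which encodes the same protein, had 155 ± 8.6 against 167 ± 16.7 FPKM (SD, n = 3 each). Ppp3r1, the regulatory subunit of calcineurin, had 16.0, 16.1 and 16.6 FPKM in controls and 13.4, 11.9 and 6.64 FPKM in pre-AML libraries, with no overlap and a log2 fold change of -0.62 (limma-trend adjusted p = 0.522). For Ppp3r1 this became -0.34 when pre-AML 3 was left out and -0.30 when the trends with length and GC content were taken out.

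**Figure D5:**
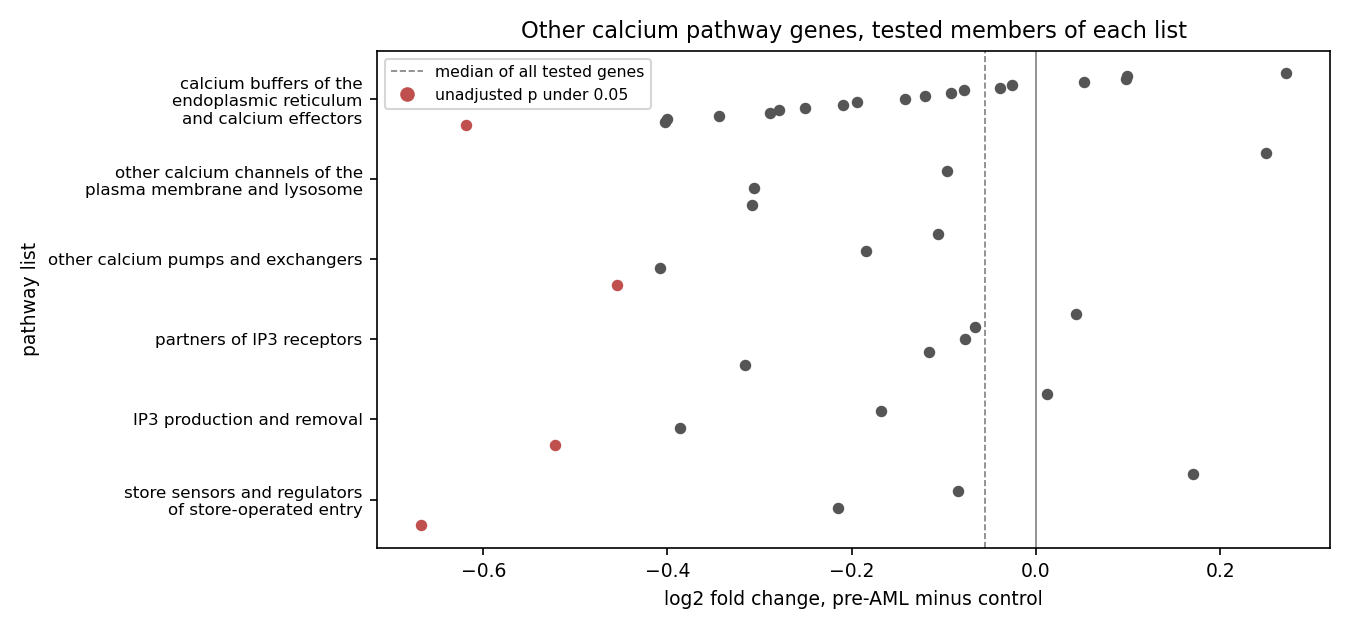
Log2 fold change, pre-AML minus control on log2(FPKM + 1), of the 40 tested calcium genes in 6 lists, 1 point per gene; the dashed line is the median of all 4412 tested genes, -0.055, and red points had an unadjusted p under 0.05. Of the 40 points, 32 lie below 0, and all 4 red points are among these 32. With TPM scaling 21 lie below 0, where the median of all tested genes is 0.090.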

How the data were processed

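The authors purified platelets of mouse blood, amplified poly(A) RNA with SMART-Seq2, made libraries with Nextera XT and aligned them to mm10 by STAR (2.5.2b). The authors tested expression with DESeq2 (1.12.4), and the values they deposited are FPKM. The counting program and annotation are not given in the sources used here, and neither is a sequencing batch.

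Gene lengths were the union of exons in GENCODE M21 (GRCm38), held by 14911 of 14975 genes. FPKM times length and library size gave whole reads, within 0.02 reads, for 82.5% of values under 200 reads, so reads are estimates. Because FPKM are not counts, the groups were compared with limma-trend (limma 3.58.1, R 4.3.3) on log2(FPKM + 1), for genes whose mean over the 6 libraries was 1 FPKM or more, without covariates, with Benjamini-Hochberg adjustment over all genes tested and a threshold of 0.05. This scale understates changes of low genes. Single values were compared with exact two-sided permutation tests (Python 3.11.15, numpy 2.4.6, pandas 2.3.3). The floor for a count of 0 was 3 reads. On simulated data 197 of 197 genes changed by 4-fold and 13 of 4293 unchanged genes were called. The simulated spread between libraries was taken from controls, and no simulated library stood apart as pre-AML 3 did. The check thus does not show how smaller changes would be called in these data.

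The 10 members, the 6 calcium lists and the 7 marker lists (leukemic progenitor, T and NK cell, B cell, monocyte and macrophage, neutrophil, erythroid, platelet) were chosen with earlier results of these data known. Named were all members, the 2 genes of highest mean and the tested gene of smallest p of each calcium list, any of its genes past the threshold, 3 genes most like the most abundant member, and the 2 highest genes of each marker list. Cd79a, Tyrobp, C1qb, Itga2b, Gp9, Gp5, Tubb1, Gp1bb, Stim2, Atp2a1, Atp2b2 and Atp2b4 were named after their values were seen. Of 21 settings run, 3 were added after seeing the data, as were the checks on the ratios of Stim1 and Atp2a3.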

Additional observations from a re-analysis of the deposited data

How the results depend on the processing

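The count of called genes was 0 of the members and 0 of the other calcium genes in all 21 settings. Of all genes tested, 0 to 2 were called per setting, so a count of 0 is not particular to the calcium genes. The adjusted p of the tested members stayed between 0.328 and 0.999. Among alternative values of single genes and gene differences, 367 kept their direction and 53 turned, and no turned value was past the threshold. Dropping or lowering the filter, or adding the replicate block, leaves a fold change as it was. Such values could not turn and are among the 367. The replicate block with length and GC trends removed likewise repeats the values with these trends removed. The 2 counts thus do not measure how stable the directions are. The median of all genes moved from -0.055 to 0.090 with TPM scaling and 0.051 with recovered reads. With TPM scaling, Orai1, Orai3, Selenok, Irag1, Bsg and P2rx1 were at 0.15, 0.14, 0.084, 0.052, 0.065 and 0.076, of which all but Orai1 and Orai3 are under that median. Scaled to recovered reads, they were at 0.11, 0.10, 0.045, 0.013, 0.026 and 0.037. In limma-voom Orai1, Orai3, Selenok and P2rx1 were at 0.094, 0.12, 0.014 and 0.0080, and after quantile normalization at 0.033, 0.026, 0.0010 and 0.038. Array weights gave Orai1, Irag1 and P2rx1 values of 0.13, 0.085 and 0.052. With length and GC trends removed, Orai2, Atp2a3, Selenok, Lrmp, Erp44 and Calm3 were at -0.095, -0.085, 0.027, -0.0030, 0.016 and -0.084, and the difference between Stim1 and Orai1 at 0.066. With the replicate block added, these genes had the same values, -0.095, -0.085, 0.027, -0.0030, 0.016 and -0.084, and the replicate block changed no call. The deviations of same-numbered libraries from their group means had r of -0.04, -0.12 and -0.17. Pre-AML 3 dominates the deviations of its group, so this check cannot tell whether the numbers pair the libraries.

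Leaving out 1 library moved Atp2a3 between -0.012 and 0.15, Orai1 between -0.13 and 0.064, Orai2 between -0.032 and 0.10, Orai3 between -0.14 and 0.10 and Itpr2 between -0.070 and 0.22. It moved Plcg2 between -0.46 and 0.041, Irag1 between -0.24 and 0.013, Lrmp between -0.024 and 0.15 and P2rx1 between -0.19 and 0.014. Depth limits Itpr3, Atp2a2, Itpr1 and Atp2b1, whose controls hold 0 to 25 reads.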

Other observations

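The 3 tested genes whose log2(FPKM + 1) followed that of Atp2a3 most closely over the 6 libraries were Gucd1, Slc14a2 and Tln1, the gene of talin, with Pearson's r of 0.986, 0.979 and 0.976. They were picked from 4412 genes for this likeness, so the values are a description. Tln1 had 183, 171 and 207 FPKM in controls and 187, 227 and 166.5 FPKM in pre-AML libraries. As with Atp2a3, pre-AML 2 was highest, control 3 was next and the groups overlapped. Gucd1 lay between 21.5 and 27.5 FPKM and Slc14a2, which encodes a urea transporter, between 2.49 and 3.33 FPKM, with the highest value in pre-AML 2 and the lowest in control 2 for both.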
